A study of Homo sapiens with 12 samples.

Results

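The genes described here encode 7 subunits of Integrator, chosen by symbol from the 60583 genes counted. INTS1, INTS7 and INTS12 form the backbone group of 3 genes, and INTS10, INTS13, INTS14 and C7orf26 form the auxiliary arm group of 4 genes. C7orf26 is the older symbol of INTS15, and all 7 symbols were found in the tables. Nascent RNA was measured by TT-seq, which labels RNA with 4-thiouridine while it is being made and sequences the captured fragments. The study addressed what Integrator does for RNA polymerase II processivity, by transfecting siCtrl or siINTS11 and collecting cells 48 hours later. There were 12 libraries in 4 groups of 3 replicates. U2OS siCtrl and U2OS siINTS11 came from the human osteosarcoma line U2OS, for which no OHT treatment is labelled. U2OS-AsiSI siCtrl and U2OS-AsiSI siINTS11 came from U2OS cells labelled AsiSI-ER that had OHT for 1 hour. AsiSI-ER is a restriction nuclease fused to part of the oestrogen receptor, and OHT (4-hydroxytamoxifen) moves it into the nucleus. Line, nuclease and OHT differ together between the lines and cannot be told apart, and the labels do not say whether U2OS-AsiSI is a single clone. They also do not say whether replicates were separate cultures, so p-values measure the spread between these libraries, which may be technical.

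Integrator binds RNA polymerase II shortly after transcription starts, where its cleavage module, with INTS11 as the endonuclease, cuts the nascent RNA. Its phosphatase module, which carries protein phosphatase 2A, removes phosphates from the polymerase and its partners. The backbone holds these modules together, and the auxiliary arm is a separate branch of the complex in which INTS13 and INTS14 pair through related folds, with INTS10 and INTS15 joined to them.

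Libraries held between 20704611 and 38065726 gene counts, and each of the 7 genes had between 847 and 7658 reads in every library, so all 7 passed the filter on low counts in each comparison. Within each group the replicates differed beyond counting noise. The targeted gene, INTS11, stood at 10.1, 8.87 and 10.1 CPM (counts per 1e+06 library counts after TMM scaling, which sets a typical gene equal between libraries) with siCtrl in U2OS, and its siINTS11 libraries there gave 7.85, 7.06 and 7.18. U2OS-AsiSI INTS11 stood at 9.63, 11 and 9.82 CPM under siCtrl and 9.01, 9.33 and 9.48 under siINTS11, a log2 fold change of -0.13 that did not pass (edgeR adjusted p 0.172) and turned to 0.06 with library totals. Nascent reads over the gene span do not measure mature INTS11 mRNA, and siINTS11 means the libraries labelled so throughout. Of 8 osteoblast or mesenchymal markers, 6 exceeded 1 CPM in some library, BGLAP was at 0 and COL1A2 stayed under 1 CPM. The summed level of that list ranged from 973 to 1130 CPM under siCtrl and from 764 to 871 CPM under siINTS11, while its members went both ways, with RUNX2 at -1.07 and ALPL at 1.31 in U2OS-AsiSI (log2). Of 3 endothelial markers, 3 exceeded 1 CPM in some library, and their sum ranged from 5.9 to 7.43 CPM under siCtrl and from 13.2 to 15.1 CPM under siINTS11. Of 4 blood markers none exceeded 1 CPM, and of 4 epithelial markers 2 did, EPCAM and CDH1, with sums of 10.2 to 11.5 CPM under siCtrl and 11.6 to 14.6 CPM under siINTS11. The part of these differences in the results was not tested, and in bulk libraries fewer cells of a type and less RNA per cell cannot be told apart.

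Sequence before 4 of the genes is shown because results turn on them: C7orf26, which rose in both lines, INTS1, which was higher in U2OS-AsiSI, and the stretches that INTS13 and INTS14 share with a gene on the other strand. The letters come from the RefSeq promoter table (GRCh38.p14), cut to bases outside the exons of GENCODE 29 and the gene spans of RefSeq, and are written 5′ to 3′ on the strand of the Integrator gene, with motif letters in capitals. The stretch before C7orf26 (chr7:6589905-6590016, plus strand) has 112 bases and 83.0% G and C. The stretch before INTS1 (chr7:1504390-1504639, minus strand) has 250 bases and 74.0% G and C. The exon-free stretch between INTS13 and FGFR1OP2 (chr12:26938333-26938382, minus strand) has 50 bases, and that between INTS14 and SLC24A1 (chr15:65611290-65611349, minus strand) has 60 bases.
C7orf26: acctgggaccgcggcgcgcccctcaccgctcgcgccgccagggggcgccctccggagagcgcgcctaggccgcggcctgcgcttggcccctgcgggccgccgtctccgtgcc
INTS1: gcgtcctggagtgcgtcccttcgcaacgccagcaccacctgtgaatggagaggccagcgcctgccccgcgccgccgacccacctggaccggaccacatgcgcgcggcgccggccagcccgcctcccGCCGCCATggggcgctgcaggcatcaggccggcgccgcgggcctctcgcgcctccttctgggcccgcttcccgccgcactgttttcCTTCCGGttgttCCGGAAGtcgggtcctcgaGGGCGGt
INTS13 and FGFR1OP2: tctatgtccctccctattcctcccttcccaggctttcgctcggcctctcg
INTS14 and SLC24A1: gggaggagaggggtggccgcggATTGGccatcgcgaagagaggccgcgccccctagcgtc

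Motifs were searched on both strands in 300-base windows around 35116 RefSeq promoters (250 bases before the start and 50 after), of which 6 of the 7 genes had one. INTS1 held 2 copies of the ETS letters CCGGAAG, which 10.3% of all promoters hold, and 1 copy of the YY1 letters ATGGCGGC, which 3.0% hold. CCAAT, the NF-Y letters, stood once each in INTS7, INTS13 and INTS14, against 34.6% of all promoters, and in the INTS14 stretch it reads ATTGG because it lies on the other strand. GGGCGG, the SP1 letters, stood in INTS1, INTS12, INTS13, INTS14 and C7orf26, against 45.0% of all promoters. INTS7 held 1 copy of the CREB letters TGACGTCA (1.85% of promoters). The AsiSI letters GCGATCGC, which 0.208% of promoters hold, were in none of the 6 windows, nor were the NRF1 motif (1.24%) and the E-box CACGTG (7.26%). In the printed INTS1 stretch no motif overlapped another, and the printed stretches of C7orf26 and INTS13 hold none of them. These are matches of letters only.

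INTS12 was the lowest of the 7 per length in every group, and C7orf26 was the highest. Per kilobase of gene span, U2OS siCtrl gave C7orf26 2.71 CPM, INTS7 2.26, INTS10 1.9, INTS14 1.69, INTS1 1.65, INTS13 1.24 and INTS12 0.194. Only INTS14 and INTS1 overlapped among neighbours in that order. In U2OS-AsiSI siCtrl the order was C7orf26 3.17, INTS7 2.3, INTS10 1.89, INTS1 1.88, INTS14 1.6, INTS13 1.31 and INTS12 0.214, with INTS10 and INTS1 overlapping. Under siINTS11 INTS13 moved up the order. It stood beside INTS10 in U2OS (1.78 against 1.85 CPM per kilobase, overlapping), and in U2OS-AsiSI the ranges of INTS1 (1.82), INTS10 (1.69), INTS13 (1.58) and INTS14 (1.57) overlapped from neighbour to neighbour.

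How far INTS12 lay below the other genes depended on its span in the tables. That span is 213.4 kb (ENSG00000138785, chromosome 4, 105682627 to 105895986, minus strand, hg38), 8.19 times the 26.1 kb of RefSeq, and only 1 of 11 GENCODE transcripts reaches the far start. With the same reads divided by the RefSeq length, INTS12 stood at 1.59 ± 0.109 CPM (SD, n = 3) in U2OS siCtrl and 1.75 ± 0.0313 in U2OS-AsiSI siCtrl, within the range of the other genes. Under siINTS11 it stood at 1.45 ± 0.0509 in U2OS, beside INTS1 (1.43), and at 1.47 ± 0.0522 in U2OS-AsiSI, still below INTS14 (1.57). Those reads were counted over the longer span, so these are upper values and do not settle its place. GSTCD, a gene of 138.9 kb on the opposite strand, lies wholly inside the tabled span with a mean of 3475 reads. GSTCD-AS1, of 80.9 kb on the strand of INTS12, also lies inside it and was at 0 in every library. That 0 is not a level, since every gene wholly inside a gene on its own strand was at 0 (below). Whether reads there were counted for INTS12 was not tested, and 132.4 kb of the tabled span lies outside GSTCD-AS1. The strand setting is not given in the sources used here, but the counts show strands kept apart. All 9070 genes lying wholly inside a gene on their own strand were at 0 in every library (100.0%), against 41.1% of the 10675 genes inside a gene on the opposite strand only. Reads of INTS12 were thus counted apart from those of GSTCD. ARHGEF38 (mean 3.3 reads) and NPNT (mean 11 reads) also overlap INTS12 on the opposite strand.

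**Figure D1:**
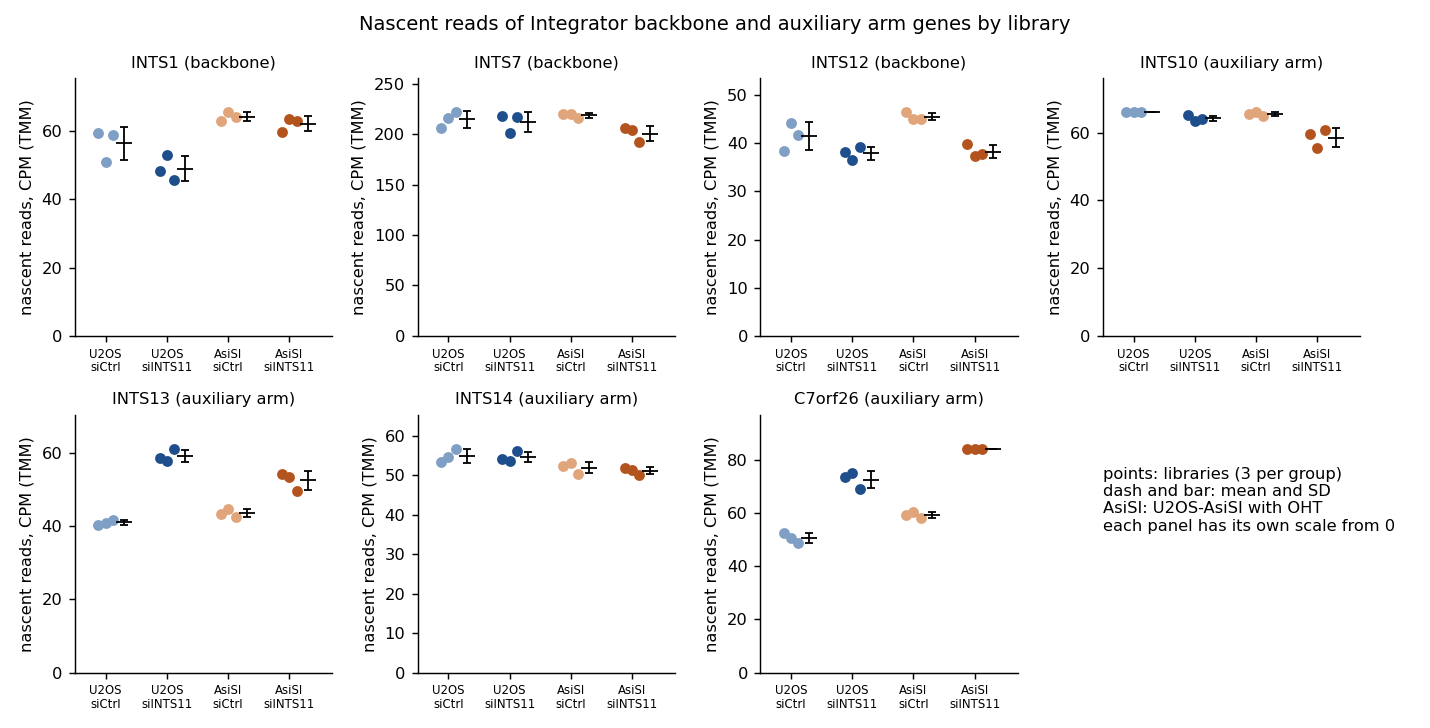
TMM-scaled CPM of nascent reads (y axis, from 0, own scale per gene) in each library of the 4 groups (x axis), with points for libraries and a dash and bar for mean and SD (n = 3). C7orf26 and INTS13 are higher in all siINTS11 libraries than in the siCtrl libraries of the same line, while INTS14 overlaps between the siRNAs in both lines.

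The siINTS11 comparison asked how each subunit's nascent reads moved when the endonuclease gene was targeted. Of the 7 genes, 5 passed in U2OS-AsiSI (2 higher, 3 lower), where 68% of 20441 genes (35.4% higher, 32.6% lower) passed edgeR's quasi-likelihood test at a Benjamini-Hochberg adjusted p of 0.05. In U2OS 4 passed (2 higher, 2 lower), against 66.9% of 20687 genes (34.5% higher, 32.4% lower), so these shares are near the background in both lines. The risers were C7orf26 and INTS13 of the auxiliary arm, in both lines. The median log2 fold change of the 7 was -0.05 in each line, and that of all genes tested was 0.03 in U2OS-AsiSI and 0.02 in U2OS. Directions are relative to a typical gene. When only library totals set the scale, the median of all genes was 0.22 in both lines. Of the calls, 72.3% in U2OS-AsiSI were of higher genes (52.1% with TMM) and 74.3% in U2OS (51.6% with TMM). On that scale 4 of the 7 genes passed as higher in U2OS-AsiSI, where 10538 of all 20441 genes did. In U2OS 5 of the 7 passed as higher, where 10959 of all 20687 genes did.

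Among the backbone genes, INTS12 fell in both lines, although under library totals its value was -0.06 and not past the threshold in U2OS-AsiSI and turned to 0.04 in U2OS. INTS12 encodes a small subunit with a PHD finger, a fold that reads histone tails. It stood at 46.5, 45.1 and 45.1 CPM in U2OS-AsiSI siCtrl and 39.8, 37.3 and 37.7 in U2OS-AsiSI siINTS11, with no overlap (71.1% of genes had none). Its log2 fold change there was -0.25 (SE 0.05, edgeR adjusted p 8.82e-05). In U2OS it stood at 38.5, 44.2 and 41.7 CPM under siCtrl and 38.1, 36.5 and 39.2 under siINTS11. Those groups overlapped on the scaling over 12 libraries and were apart on that over 6, where 69.5% of genes were apart. The change was -0.16 (SE 0.05, edgeR adjusted p 0.00545), and without U2OS siCtrl replicate 2 it was -0.10 and no longer passed (edgeR adjusted p 0.126).

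INTS7 (ENSG00000143493, chromosome 1, 211940399 to 212035557, minus strand) had the most reads of the 7 and spans 95.2 kb. It stood at 220, 220 and 216 CPM in U2OS-AsiSI siCtrl and 206, 204 and 192 in U2OS-AsiSI siINTS11, with the groups apart. The log2 change of -0.12 (SE 0.04, edgeR adjusted p 0.0171) turned to 0.07 under library totals, and it did not pass without U2OS-AsiSI siCtrl replicate 2 (edgeR adjusted p 0.0707) or without U2OS-AsiSI siINTS11 replicate 3 (0.0927). Testing only genes averaging 50 counts or more gave -0.07 (edgeR adjusted p 0.148). In U2OS its values of 206, 216 and 222 CPM under siCtrl and 218, 201 and 217 under siINTS11 overlapped, with a change of -0.05 (95% interval -0.13 to 0.03).

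INTS1 (ENSG00000164880, chromosome 7, 1470277 to 1504389, minus strand), the largest protein of the complex and its scaffold, stood at 59.4, 50.8 and 58.7 CPM in U2OS siCtrl against 48.3, 52.8 and 45.7 in U2OS siINTS11. The groups overlapped through the second replicate of each, yet the log2 change of -0.23 (SE 0.05) passed, with an edgeR adjusted p of 0.000606, and under library totals it was -0.03 and did not. In U2OS-AsiSI INTS1 stood at 63, 65.5 and 64 CPM under siCtrl and 59.6, 63.6 and 63 under siINTS11. That change of -0.05 (95% interval -0.14 to 0.05) did not pass, and the lines differed by 0.15 (95% interval -0.01 to 0.30), also not past the threshold (edgeR adjusted p 0.29).

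In the auxiliary arm, C7orf26 rose in both lines, also with library totals (0.69 in U2OS and 0.70 in U2OS-AsiSI). C7orf26 (ENSG00000146576, chromosome 7, 6590021 to 6608726, plus strand) is the shortest of the 7 genes at 18.7 kb. It stood at 52.7, 50.5 and 48.8 CPM with siCtrl in U2OS and at 73.7, 75.1 and 69.2 with siINTS11. Its U2OS-AsiSI libraries stood at 59.2, 60.5 and 58.2 CPM under siCtrl and 84.2, 84.3 and 84.2 under siINTS11. No library of one siRNA overlapped the other in either line. The rise was 1.4-fold in U2OS (log2 0.49, SE 0.04, edgeR adjusted p 5.97e-13) and 1.42-fold in U2OS-AsiSI (log2 0.51, SE 0.05, edgeR adjusted p 3.12e-11). Its effects in the lines differed by -0.01 (95% interval -0.14 to 0.11).

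INTS13 (ENSG00000064102, chromosome 12, 26905181 to 26938326, minus strand, 33.1 kb), first described as the fly gene asunder, also rose in both lines. It stood at 40.4, 40.9 and 41.7 CPM in U2OS siCtrl against 58.5, 57.8 and 61.1 in U2OS siINTS11, a 1.41-fold rise (log2 0.50, SE 0.04, edgeR adjusted p 4.72e-13). In U2OS-AsiSI it stood at 43.2, 44.7 and 42.6 CPM under siCtrl and 54.3, 53.4 and 49.6 under siINTS11, a 1.21-fold rise (log2 0.27, SE 0.05, edgeR adjusted p 2.2e-05). The siRNAs were apart in both lines, and library totals gave 0.70 in U2OS and 0.46 in U2OS-AsiSI.

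INTS14 did not pass in either line, and INTS10 passed in U2OS-AsiSI. INTS14 (ENSG00000138614, chromosome 15, 65578753 to 65611289, minus strand), the partner of INTS13, stood at 53.3, 54.5 and 56.7 CPM with siCtrl in U2OS and at 54.1, 53.7 and 56 with siINTS11. Its U2OS-AsiSI libraries stood at 52.3, 53.2 and 50.3 CPM under siCtrl and 51.8, 51.4 and 50.1 under siINTS11. The groups overlapped in both lines, and the 95% intervals of its log2 change ran from -0.12 to 0.05 in U2OS and from -0.12 to 0.08 in U2OS-AsiSI. With library totals its change was 0.16 and 0.17 and passed in both. INTS10 (ENSG00000104613, chromosome 8, 19817391 to 19852083, plus strand) stood at 66, 66.1 and 66.1 CPM in U2OS siCtrl against 65.1, 63.5 and 64 in U2OS siINTS11, where the change of -0.07 (SE 0.04) did not pass (edgeR adjusted p 0.131). In U2OS-AsiSI it fell from 65.6, 66 and 65 CPM to 59.6, 55.4 and 60.7, by 0.16 on the log2 scale (SE 0.05, edgeR adjusted p 0.00555), a fall that turned to 0.03 under library totals and did not pass when only genes averaging 50 counts or more were tested (-0.10, edgeR adjusted p 0.0531).

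**Figure D2:**
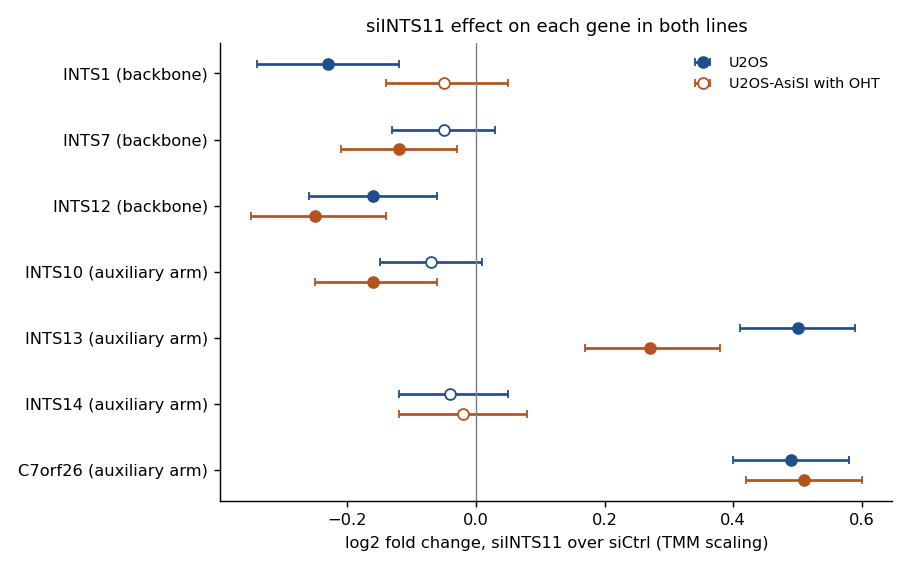
Log2 fold change of siINTS11 over siCtrl (x axis) for each of the 7 genes (y axis) in U2OS and U2OS-AsiSI, with 95% intervals, where filled points passed the edgeR threshold. C7orf26 and INTS13 lie right of 0 in both lines, and the points left of 0 for INTS7, INTS10 and INTS14 in both lines, for INTS1 in U2OS-AsiSI and for INTS12 in U2OS turn sign with library totals.

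Ratios of read counts between genes of the same library need no scaling, and in them C7orf26 and INTS13 rose relative to INTS14. They use the same counts as the fits and are no separate evidence. The log2 ratio of C7orf26 to INTS14 went from -0.11 ± 0.10 to 0.41 ± 0.09 in U2OS and from 0.19 ± 0.02 to 0.72 ± 0.03 in U2OS-AsiSI (SD, n = 3), a difference of 0.53 in each. The log2 ratio of INTS13 to INTS14 went from -0.42 ± 0.02 to 0.12 ± 0.01 in U2OS and from -0.25 ± 0.02 to 0.04 ± 0.05 in U2OS-AsiSI. The libraries of the siRNAs were apart in these 4 comparisons. INTS12 to INTS7 fell by 0.11 in U2OS and 0.13 in U2OS-AsiSI, while INTS1 to INTS7 overlapped in both lines. Over 18 such comparisons, a group of 3 against 3 can give no exact two-sided permutation p under 0.1, and the adjusted value was then 0.129.

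INTS7, INTS13 and INTS14 share their start region with a gene on the other strand, as INTS12 does with GSTCD by RefSeq, where the starts lie 89 bp apart. Of 11 GENCODE transcripts of INTS12, 7 start within 500 bp of GSTCD. By the start positions in the tables, which differ from the edges of the printed stretches, INTS13 starts 144 bp from FGFR1OP2, known from a fusion with the receptor gene FGFR1. FGFR1OP2 stood at 38.5, 42.7 and 41.6 CPM in U2OS siCtrl against 43, 41.5 and 43.1 in U2OS siINTS11, and at 48.2, 44.6 and 42.3 and then 38.7, 37.7 and 35.3 in U2OS-AsiSI. FGFR1OP2 fell in U2OS-AsiSI (log2 -0.27, SE 0.06, edgeR adjusted p 8.17e-05, but -0.08 and not past the threshold with library totals). In U2OS it was at 0.02 (SE 0.05) and did not pass, while library totals gave 0.22, which passed as higher (edgeR adjusted p 0.000182). The log2 ratio of INTS13 to FGFR1OP2 went from 0.00 ± 0.07 to 0.48 ± 0.03 in U2OS and from -0.05 ± 0.10 to 0.49 ± 0.01 in U2OS-AsiSI, with the siRNAs apart in both. A difference between those shifts, 0.47 and 0.54, was not tested.

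INTS14 starts 77 bp from SLC24A1, which encodes a sodium, calcium and potassium exchanger of rod photoreceptors. While INTS14 did not pass in either line, SLC24A1 rose. It stood at 12.4, 13.7 and 13.7 CPM in U2OS siCtrl against 25, 23 and 26.3 in U2OS siINTS11 (log2 0.87, SE 0.07, edgeR adjusted p 3.36e-15). In U2OS-AsiSI it stood at 12.5, 13.2 and 14.9 CPM under siCtrl and 20.1, 22.9 and 22.4 under siINTS11 (log2 0.69, SE 0.07, edgeR adjusted p 8.18e-10). INTS14 therefore had 3.98 to 4.28 reads per SLC24A1 read in U2OS siCtrl and 2.13 to 2.33 in U2OS siINTS11.

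INTS7 starts 4 bp from DTL, a substrate receptor of a ubiquitin ligase, and their spans overlap by 5 bp. DTL fell in U2OS (log2 -0.26, SE 0.04, edgeR adjusted p 4.43e-07) and in U2OS-AsiSI (log2 -0.18, SE 0.05, edgeR adjusted p 0.00139), and library totals gave -0.06 and 0.01, neither past the threshold. The log2 ratio of INTS7 to DTL went from -0.10 ± 0.02 to 0.12 ± 0.06 in U2OS, with the groups apart, and from 0.00 ± 0.03 to 0.05 ± 0.03 in U2OS-AsiSI, where they overlapped. AC092814.1, which overlaps INTS7 on the opposite strand, was at 0. GSTCD, next to the RefSeq start of INTS12 and inside its tabled span, fell by 0.36 on the log2 scale in U2OS and 0.42 in U2OS-AsiSI. The log2 ratio of INTS12 to GSTCD was higher under siINTS11 by 0.21 in U2OS and by 0.18 in U2OS-AsiSI, with the siRNAs apart in both. INTS1, INTS10 and C7orf26 had no such neighbour within 1000 bp.

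**Figure D3:**
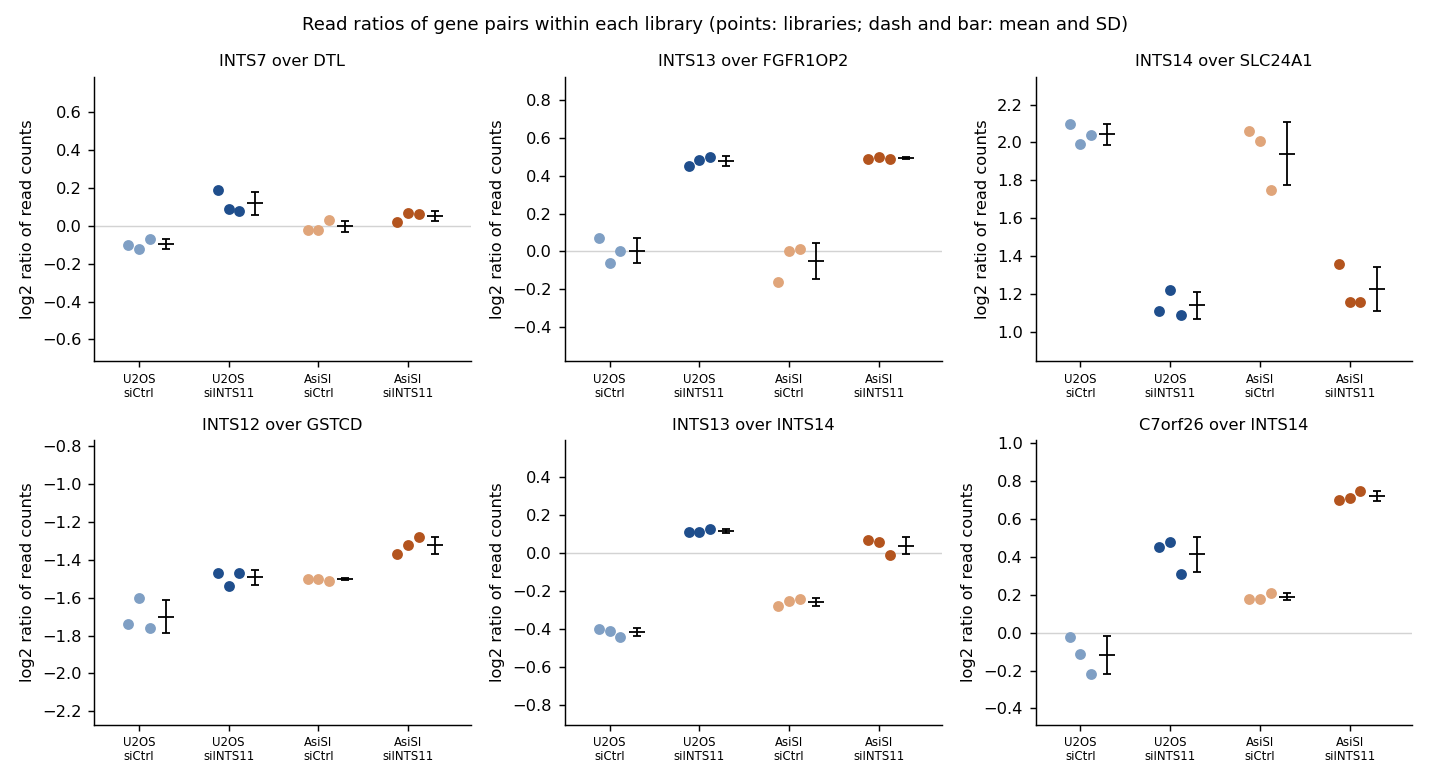
Log2 ratio of read counts of 6 gene pairs (y axis, same height of scale in each panel) in each library of the 4 groups (x axis), with a dash and bar for mean and SD (n = 3). INTS14 over SLC24A1 drops from 2.05 to 1.14 in U2OS and from 1.94 to 1.23 in U2OS-AsiSI, and INTS13 over FGFR1OP2 rises from near 0 to 0.48 in U2OS and 0.49 in U2OS-AsiSI.

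Log2 fold changes were also set beside those of protein-coding genes of like span, in deciles. In U2OS-AsiSI the decile of the shortest spans had a median of 0.21 and that of the longest a median of -0.33 (quartiles -0.64 and 0.01), and INTS12 at -0.25 fell inside those quartiles. By its RefSeq span INTS12 belongs to decile 4 instead, where -0.25 lies below the lower quartile of -0.19, and in U2OS -0.16 lies inside (-0.17 to 0.26). INTS7 at -0.12 lay inside those of its decile (-0.42 to 0.05), as did INTS1, INTS10 and INTS14 (-0.23 to 0.22). INTS13 at 0.27 lay above that upper quartile, and C7orf26 at 0.51 lay above that of its own decile (0.31, median 0.08). In U2OS INTS13 at 0.50 and C7orf26 at 0.49 again lay above the upper quartiles of their deciles (0.19 and 0.35), and INTS1 at -0.23 lay below the lower quartile of -0.2. This sets values beside genes of like span and is no test.

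**Figure D4:**
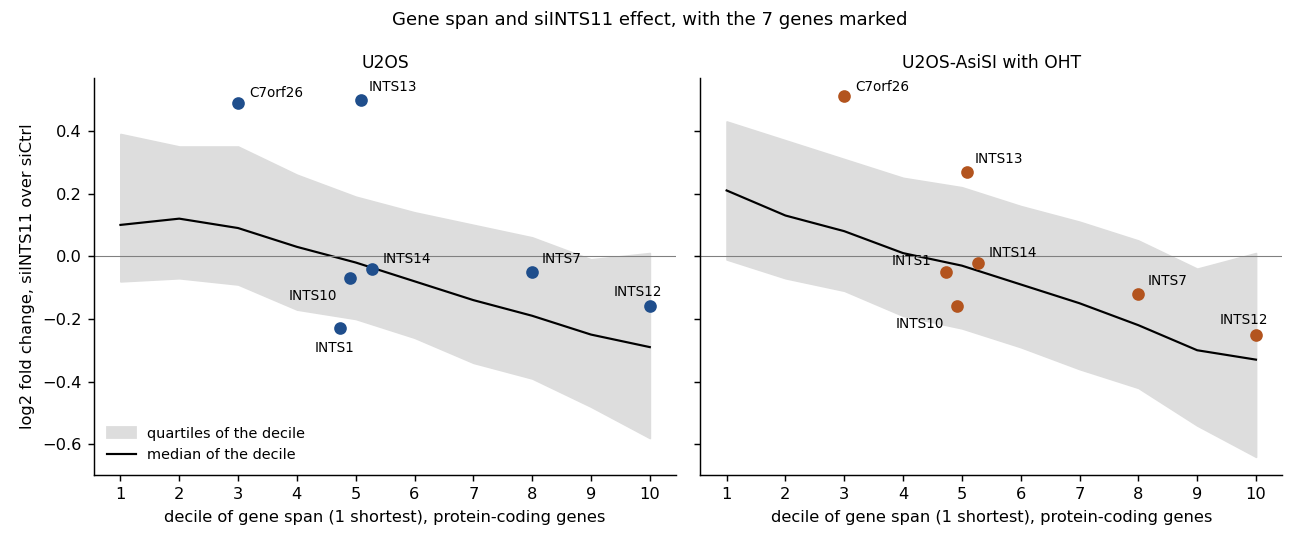
Log2 fold change of siINTS11 over siCtrl (y axis) against the decile of gene span (x axis, 1 shortest) of protein-coding genes, with the median as a line, the quartiles as a band and the 7 genes as points, in U2OS (left) and U2OS-AsiSI (right). C7orf26 and INTS13 lie above the band in both lines.

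The difference of the siINTS11 effect between the lines was past the threshold for 1 of the 7 genes, where 3.87% of 21521 genes passed (0.762% higher, 3.1% lower in U2OS-AsiSI). INTS13 rose less in U2OS-AsiSI, by -0.26 on the log2 scale (SE 0.07, 95% interval -0.39 to -0.13, edgeR adjusted p 0.0204), with a median over all genes of -0.05. The call was lost with median-of-ratios size factors (-0.23, edgeR adjusted p 0.0722), with DESeq2 (-0.23, DESeq2 adjusted p 0.0725), without a count filter (-0.21, edgeR adjusted p 0.123) and when only genes averaging 50 counts or more were tested (-0.19, edgeR adjusted p 0.0809). It was also lost without U2OS siCtrl replicate 3 (edgeR adjusted p 0.117), U2OS siINTS11 replicate 1 (0.0572) or 3 (0.0998), U2OS-AsiSI siCtrl replicate 2 (0.084) or U2OS-AsiSI siINTS11 replicate 3 (0.114). FGFR1OP2 differed in the same direction (-0.33, SE 0.07, edgeR adjusted p 0.0108). The other 6 genes did not pass, with estimates from -0.12 for INTS10 and INTS12 to 0.15 for INTS1.

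Between the lines under the same siRNA, INTS1 and C7orf26 were higher in U2OS-AsiSI. These comparisons use the same libraries as those of the siRNAs. Under siCtrl 3 of the 7 genes passed, all higher, where 34.9% of 19935 genes passed (17.8% higher, 17.2% lower) and 44.8% had no overlap. The difference was 0.23 for C7orf26 (SE 0.05, edgeR adjusted p 0.000294), 0.20 for INTS1 (SE 0.05, edgeR adjusted p 0.00331) and for INTS12 0.14 (SE 0.05, edgeR adjusted p 0.0407). INTS1 did not pass without U2OS siCtrl replicate 2 (0.13, edgeR adjusted p 0.0664). The INTS12 call was lost without U2OS siCtrl replicate 1 (0.09, edgeR adjusted p 0.187) or 3 (0.14, 0.0675), without U2OS-AsiSI siCtrl replicate 1 (0.12, 0.12), 2 (0.14, 0.0759) or 3 (0.15, 0.0519), and with DESeq2 (0.13, DESeq2 adjusted p 0.112). Median-of-ratios size factors (0.13, edgeR adjusted p 0.061), thinning to the smallest total (0.14, 0.0893) and the replicate block (0.14, 0.0568) also lost it, so it passed in 5 of 14 alternatives.

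Under siINTS11 3 of the 7 genes passed between the lines, where 43.6% of 20802 genes passed (22.2% higher, 21.4% lower) and 52% had no overlap. INTS1 was higher in U2OS-AsiSI by 0.38 (SE 0.05, edgeR adjusted p 3.56e-08), with 59.6 to 63.6 CPM against 45.7 to 52.8. C7orf26 exceeded its U2OS level by 0.25 (SE 0.04, edgeR adjusted p 1.02e-05), and INTS13 was lower, at -0.14 (SE 0.05, edgeR adjusted p 0.0146). The INTS13 call was lost without U2OS siINTS11 replicate 3 (edgeR adjusted p 0.0886), without U2OS-AsiSI siINTS11 replicate 3 (0.139) and with library totals (-0.09, edgeR adjusted p 0.107).

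With TMM, counts for the other modules of the complex are set beside the same background of 68% in U2OS-AsiSI and 66.9% in U2OS. Of 15 other Integrator genes 14 were tested, and PPP2CA, whose whole span is overlapped by other genes on its strand, was at 0 in every library. In U2OS-AsiSI 8 passed (4 higher, 4 lower), and in U2OS 11 passed (5 higher, 6 lower). When only library totals set the scale, 9 passed as higher and 0 as lower in U2OS-AsiSI, and 8 as higher and 1, INTS11, as lower in U2OS. Of all genes on that scale, 10538 of 20441 passed as higher and 4033 as lower in U2OS-AsiSI. The same counts in U2OS were 10959 and 3800 of 20687. Of the 3 cleavage module genes, 2 fell in U2OS-AsiSI and 3 in U2OS, with INTS9 at -0.22 and -0.12, where library totals gave -0.03 and 0.08. BRAT1, an assembly partner of the cleavage module, was at 0.07 (SE 0.05) in U2OS-AsiSI and rose by 0.12 in U2OS. The phosphatase module went both ways: of 5 genes tested, 2 passed as higher and 1 as lower in U2OS-AsiSI, and 3 and 2 in U2OS. INTS6, with the smallest adjusted p of that module, rose by 0.29 in U2OS-AsiSI and 0.20 in U2OS. So did the 4 genes of the SOSS complex go both ways, with 2 higher and 1 lower in U2OS-AsiSI, and 1 and 1 in U2OS. NABP1, a single-strand DNA binding partner of that complex with its smallest adjusted p, rose by 0.51 and 0.43. Of the 6 genes of DSIF and NELF, factors that hold the polymerase at the pause, 5 were tested, and 1, NELFA, passed in U2OS-AsiSI (-0.15, edgeR adjusted p 0.0239), a value of 0.04 with library totals. In U2OS NELFA was at 0.05 (SE 0.06). Library totals alone gave 3 of the 5 as higher in U2OS-AsiSI and 4 of the 5 in U2OS. The counts of all genes on that scale are those given above.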

How the data were processed

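For 12 TT-seq libraries, the authors deposited raw counts of reads over each gene span, introns included. The submitters' processing notes name Trimmomatic 0.36, STAR 2.7, deepTools, featureCounts and hg38. Strand setting and duplicate handling are not given in the sources used here. The counts themselves keep strands apart: genes wholly inside another gene on their strand were at 0. Columns were matched to samples by name, and 0 columns were left without a sample. Of 55454 symbols also in GENCODE 29, 41599 (75.0%) had the same coordinates. Yeast spike-in scaling was not used here, so a change of all nascent RNA together was not analysed.

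Tests across genes used the quasi-likelihood method of edgeR 4.0.16 under R 4.3.3 (filterByExpr, TMM (trimmed mean of M-values), robust glmQLFit, glmQLFTest, two-sided) on the libraries compared, and the difference between lines as an interaction over 12 libraries. Benjamini-Hochberg adjustment covered all genes tested, at a threshold of 0.05. The fits were tested on simulated counts with 200 changed genes and a dispersion (spread beyond counting noise) of 0.01 for every gene. The siRNA tests recovered 92.9% of 2-fold and 42.9% of root-2-fold changes in U2OS-AsiSI, and 93.6% and 42.4% in U2OS. The test of the difference between the lines recovered 65.7% and 13.4%. Unchanged genes made up between 4.9% and 10% of calls over the 5 comparisons. That dispersion was set and not estimated from these libraries, so the shares recovered do not give those of the real fits. With so few genes changed, the simulation did not test TMM scaling where most genes pass. Ratios were compared by exact permutation (scipy 1.17.1). Alternatives were other scaling, count filters, read density under 0.1 reads per base, DESeq2 1.42.0, a replicate block, thinning to the smallest total and leaving out each library. Library totals of 20704611 to 38065726 counts limit precision, and the tools named by the submitters do not show whether reads carried molecular identifiers.

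Named were the 7 genes, INTS11, the gene with the smallest adjusted p of each other module, genes on the opposite strand starting within 1000 bp or overlapping, and the 2 genes of most like pattern. The members and lists were chosen with earlier results of these data known. INTS1 and C7orf26 sequences, and the motifs searched, were likewise chosen with results known.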

Additional observations from a re-analysis of the deposited data

Results flagged for a closer look

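INTS13 was picked out because its siINTS11 effect differed between the lines by an interaction test: the rise in U2OS-AsiSI minus that in U2OS was -0.26 on the log2 scale (SE 0.07, edgeR adjusted p 0.0204). The gene starting 144 bp away on the other strand, FGFR1OP2, was picked out in the same way, at -0.33 (SE 0.07, edgeR adjusted p 0.0108). The INTS13 call held in 11 of 20 alternatives. That of FGFR1OP2 held with library totals (-0.30, edgeR adjusted p 0.0177) and was not followed under the other alternatives.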

How the results depend on the processing

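Of 528 log2 fold changes under alternatives, 461 kept their direction and their side of the threshold, 29 lost the threshold, 2 gained it and 36 changed sign. Library totals alone turned INTS1 (0.14), INTS7 (0.07), INTS10 (0.03) and INTS14 (0.17) in U2OS-AsiSI. In U2OS they turned INTS7 (0.15), INTS12 (0.04), INTS10 (0.13) and INTS14 (0.16). Between the lines they turned INTS10 under siCtrl (0.05) and INTS7 under siINTS11 (0.00). They raised the genes called between the lines under siCtrl to 5 of 7, all higher. Of all 19935 genes in that comparison, 4921 passed as higher and 2376 as lower. A mean count of at least 50 turned INTS1 (0.01) and INTS14 (0.03) in U2OS-AsiSI and INTS14 in U2OS (0.01). It left 3 of 7 called in U2OS-AsiSI, where 11180 of 15469 genes passed. Read density under 0.1 reads per base turned INTS14 in U2OS-AsiSI and INTS10 between lines under siCtrl to 0.00. For the difference between the lines, estimates near 0 changed sign: INTS14 to between 0.00 and 0.05 and C7orf26 to between 0.01 and 0.07, being 0.01 and 0.02 with median-of-ratios size factors and with DESeq2, 0.01 and 0.01 with library totals, 0.03 and 0.03 without a count filter, 0.05 and 0.06 under the minimum mean of 50, and C7orf26 0.02 when thinned. Leaving out a library moved INTS14 there between -0.04 and 0.01, C7orf26 between -0.04 and 0.07, and INTS10 between lines under siCtrl between -0.01 and 0.00.

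Genes called for the difference between the lines numbered 832, against 447 with median-of-ratios size factors, 423 with DESeq2, 531 with the replicate block, 541 when thinned and 288 to 945 with a library left out. The number was 502 or less without any of the 9 libraries other than U2OS siCtrl replicate 2, U2OS-AsiSI siCtrl replicate 3 and U2OS-AsiSI siINTS11 replicate 1. The 7 held 0 calls there with median-of-ratios size factors, without a count filter, under the minimum mean of 50 and with DESeq2, and 0 to 1 with a library left out. Higher calls were 19.7% of those 832, against 67% under the minimum mean of 50 and 53.6% without U2OS siCtrl replicate 3. The cause was not tested. Same-numbered libraries correlated between -0.17 and 0.22 in their deviations, and a library matched its own number best in 6 of 36 cases. No pairing by number was detected, which does not exclude that same-numbered libraries were handled together. With the replicate block, 14172 genes passed in U2OS-AsiSI and 13700 in U2OS, and among the 7 genes INTS12 between the lines under siCtrl was no longer called (edgeR adjusted p 0.0568). Of 140 levels, 26 moved by more than 1 SD, 23 of them under library totals. C7orf26, at 0.1051 reads per base, was left out of the density fit in 4 comparisons.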

Other observations

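The genes of most like pattern were found by root-mean-square distance of centred log2 CPM over 12 libraries, among 13557 genes averaging 100 counts or more. C7orf26 lay nearest to MFSD12 (0.035) and TRIM56 (0.046), and INTS13 to GCLC (0.046) and SLC7A2 (0.052). INTS14 lay nearest to CHD8 (0.024) and POM121 (0.025), and INTS10 to THOC7 (0.025) and GGA2 (0.029). INTS7 lay nearest to MRPS35 (0.023) and PTCD3 (0.025), INTS12 to SYPL1 (0.033) and PTS (0.034), and INTS1 to P3H3 (0.055) and CTDSP1 (0.061). Among the 7 genes, C7orf26 and INTS13 were each other's nearest (0.167), as were INTS7 and INTS14 (0.055). Among all genes, however, C7orf26 ranked 1560 in nearness to INTS13. There INTS14 ranked 325 in nearness to INTS7, and INTS7 ranked 247 in nearness to INTS14. The spread of a gene around its own mean, on the same measure, was 0.053 for INTS14, 0.063 for INTS7 and 0.279 for C7orf26. The distance between INTS7 and INTS14 was thus about as large as the spread of each.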
